A study of Mus musculus with 8 samples.

Results

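The HSC transcription factor core is described here as a set of 10 genes, Gata2, Runx1, Tal1, Lyl1, Lmo2, Fli1, Erg, Meis1, Mecom and Hlf, taken by name out of 55487 gene identifiers in the count table. They were split by textbook knowledge into 3 factors that are largely restricted to HSCs within the blood system (Meis1, Mecom and Hlf) and 7 that HSCs share with progenitors. All 10 had reads in each of the 8 samples and passed the filter on low counts. Bulk RNA-seq was made from LT-HSCs of E14.5 mouse fetal liver, 500 cells per sample, sorted by the study as lineage-depleted Sca1+ cKit+ CD48- CD150+ cells. The genotypes of IκBα (Nfkbia), the cytoplasmic inhibitor of NF-κB, were compared in 3 WT, 3 HET and 2 KO samples. The allele is a germline null, so every cell of an embryo carried it, and the embryos came from crosses between HET parents, some of which may also have carried a Gfi1:tomato reporter. WT1, WT2 and HET1 were male and labelled as total RNA, whereas WT3, HET2, HET3, KO1 and KO2 were female and labelled as polyA RNA. Sex and this RNA label therefore cannot be told apart, and no KO sample was male. The study drew the genotypes from shared litters where it could, but which samples were littermates is not given in the sources used here, and a p-value measures only the spread between these samples.

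In the blood system, transcription factors of this kind bind together at shared enhancers and keep each other expressed. Gata2, Runx1, the helix-loop-helix proteins Tal1 and Lyl1, the bridging protein Lmo2 and the ETS factors Fli1 and Erg form such a combination in stem cells and in progenitors. Meis1, Mecom and Hlf are lost early in differentiation, and each is known for its part in HSC self-renewal or quiescence. Along the erythroid path Gata1 takes the place of Gata2, while Tal1, Lyl1 and Lmo2 stay in use.

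The data give 3 plain patterns. Meis1, Mecom, Hlf, Fli1 and Erg spread over a 24.8-fold or larger range of levels between the 8 samples, Gata2 and Runx1 over 6.33-fold and 4.25-fold, while Lmo2 and Lyl1 differed by at most 1.46-fold and 1.27-fold. Tal1 ran the opposite way, with its lowest levels in WT1 and WT2, where the first 5 were high. Both KO samples were above all 3 female WT/HET samples for 8 members, as for 27.1% of all genes, and male WT1 and WT2 were above those female samples for the same 8, as for 34.2% of all genes. No member had both KO samples above all 6 WT/HET samples (3.05% of genes) or below them (1.79%).

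The promoter sequence of the HSC-restricted factors is shown because their levels moved together, beside that of Tal1, which moved the other way. The 250 bases before the annotated start were taken from RefSeq (GRCm38.p6), in which 14 windows matched 8 of the 10 members. Lmo2 and Fli1 had no window. Capitals mark any of 4 motifs on either strand: GATAA (GATA factors), GGAAGT (ETS factors), CAGNTG (E-box, bound by Tal1 and Lyl1 with their partners) and TGTGGT (RUNX factors).
Meis1, chr11:19018970-19019219, minus strand: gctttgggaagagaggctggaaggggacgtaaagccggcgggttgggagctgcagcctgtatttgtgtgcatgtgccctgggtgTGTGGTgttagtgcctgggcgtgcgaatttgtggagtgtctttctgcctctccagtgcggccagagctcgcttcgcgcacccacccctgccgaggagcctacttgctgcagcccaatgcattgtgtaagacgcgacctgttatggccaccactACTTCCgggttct
Mecom, upstream start, chr3:30509760-30510009, minus strand: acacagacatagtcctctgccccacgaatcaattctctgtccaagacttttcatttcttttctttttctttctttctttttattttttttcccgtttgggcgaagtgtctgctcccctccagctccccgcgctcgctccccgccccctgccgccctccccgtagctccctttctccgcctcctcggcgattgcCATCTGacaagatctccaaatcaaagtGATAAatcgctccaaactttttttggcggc
Mecom, inner start, chr3:30013205-30013454, minus strand: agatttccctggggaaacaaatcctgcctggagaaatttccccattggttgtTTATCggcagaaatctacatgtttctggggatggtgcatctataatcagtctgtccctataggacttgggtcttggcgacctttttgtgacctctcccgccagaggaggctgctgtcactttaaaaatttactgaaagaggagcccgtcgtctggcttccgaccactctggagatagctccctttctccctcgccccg
Hlf, chr11:90390918-90391167, minus strand: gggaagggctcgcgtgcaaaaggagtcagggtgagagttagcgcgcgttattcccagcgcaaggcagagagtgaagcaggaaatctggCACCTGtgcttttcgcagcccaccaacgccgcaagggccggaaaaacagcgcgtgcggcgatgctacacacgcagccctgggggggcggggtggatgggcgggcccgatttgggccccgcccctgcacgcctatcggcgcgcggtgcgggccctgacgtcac
Tal1, upstream start, chr4:115056176-115056425, plus strand: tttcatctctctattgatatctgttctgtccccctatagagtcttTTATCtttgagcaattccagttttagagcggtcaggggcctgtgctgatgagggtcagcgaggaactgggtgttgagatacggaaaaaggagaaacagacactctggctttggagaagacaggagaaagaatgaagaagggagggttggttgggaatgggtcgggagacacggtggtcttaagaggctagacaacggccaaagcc

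The Meis1 window held 1 ETS match, 13 bases before the start, and 1 RUNX match. Both Mecom windows held 1 GATA match, and the upstream one also held 1 E-box. The Hlf window held 1 E-box and the printed Tal1 window 1 GATA match. The other Tal1 window, at an inner start (chr4:115057561-115057810), held none of the marked motifs and is not printed. Over the 14 windows of members, 4 held a GATA motif, 5 an E-box, 1 an ETS and 1 a RUNX motif. Among all 32851 windows of this length the shares were 22.6% for GATA, 44.8% for the E-box, 19.7% for ETS and 14% for RUNX. The κB site of NF-κB, read as GGGA and TTTCC around any 1 base, was in 0 of the 14 windows and in 0.356% of all windows, and the retinoic acid receptor motif AGGTCA was in 2 of the 14 (the inner Mecom start and 1 Erg start) and in 14% of all. A match describes letters and is no evidence of binding.

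The depth was even, with 17895973 to 21720972 reads per sample counted on genes, so that 3 reads correspond to 0.138 to 0.168 CPM before TMM scaling. The knockout was first checked on the deleted gene. Nfkbia had 45.3, 67.7 and 23.4 CPM in WT1, WT2 and WT3, 23.3, 29.0 and 14.4 CPM in HET1, HET2 and HET3, and 1 read in KO1 and 0 in KO2. The cell type label was then checked on 8 LT-HSC markers. Their summed level was 1254 and 1320 CPM in WT1 and WT2, 1241 and 872 CPM in KO1 and KO2, 526 and 497 CPM in HET1 and HET2, and only 305 and 276 CPM in WT3 and HET3. Ly6a, the gene of Sca1 and so of a protein used in the sort, had 62.7 and 77.2 CPM in WT1 and WT2 and 51.3 and 41.6 CPM in KO1 and KO2. It had 19.9 and 14.1 CPM in HET1 and HET2, 5.0 CPM in WT3 and no read in HET3. Hoxb5, an HSC reporter gene, was also at 0 in HET3 and had 0.521 CPM in WT3, while Kit, also a gate marker, stayed between 135 and 231 CPM in all 8 samples. Slamf1, the gene of CD150 and so another gate marker, had 124 and 119 CPM in WT1 and WT2 and 83.2 and 51.1 CPM in KO1 and KO2. It had 24.9 and 22.7 CPM in HET1 and HET2, close to 19.8 CPM in WT3, and 13.0 CPM in HET3. WT3 and HET3 therefore had the lowest marker sums, at the low end of a gradient with HET1 and HET2 between. The edgeR comparisons, list counts, gene order and likeness below are also given without WT3 and HET3. In bulk samples, fewer cells of a type and less RNA per cell cannot be told apart.

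Other cell types were measured in the same libraries. Hepatocyte markers, 6 of 6 detected, summed to 1338 CPM in WT3 and 673 CPM in HET3 against 48.5 to 278 CPM in the other 6 samples, and Ttr, a hepatocyte gene, was at 0 in WT1 and WT2. Erythroid markers, 7 of 7, summed to 348 to 1988 CPM in KO, to 831 to 2769 CPM in WT and to 2927 to 11024 CPM in HET. Macrophage markers, 6 of 6, ranged from 24.5 to 245 CPM with no order by genotype. Endothelial markers, 6 of 6, summed to 4.86 to 35.6 CPM in the female WT/HET samples and 47.9 to 147 CPM in the male ones, but those named here, Pecam1 and Tek, are also expressed by HSCs. The part of these cell types in the results below was not tested.

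Among the HSC-restricted factors, Meis1 (chr11:18879817-19018985), a homeodomain partner of Hox proteins, had 277, 256 and 21.7 CPM in WT1, WT2 and WT3, 96.6, 56.3 and 8.72 CPM in HET1, HET2 and HET3, and 249.6 and 144 CPM in KO1 and KO2. Its KO levels lay between the 2 male WT samples and all 4 of the remaining WT/HET samples. Mecom (chr3:29951296-30548008), whose product EVI1 is a zinc finger factor needed to maintain HSCs, had 237, 200.1 and 10.1 CPM in the WT samples in the same order, 64.9, 48.9 and 1.36 CPM in HET, and 178 and 106 CPM in KO. HET3 held only 23 reads of Mecom, and WT1 was 174-fold above it. Hlf (chr11:90336536-90390895), a PAR bZIP factor that marks HSCs, had 231, 273 and 15.8 CPM in WT, 72.4, 70.5 and 3.03 CPM in HET, and 209.7 and 120.0 CPM in KO. The sample order was shared by all 3 genes from the bottom up, HET3, WT3, HET2, HET1, KO2 and KO1, with WT1 and WT2 on top.

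The ETS factors followed the restricted genes although they belong to the shared class. Fli1 (chr9:32422204-32542861) had 151, 174 and 18.6 CPM in WT, 68.8, 54.9 and 7.0 CPM in HET, and 172 and 116 CPM in KO. Erg (chr16:95359169-95586593), which is required for HSC maintenance, had 37.1, 33.8 and 3.07 CPM in WT, 15.3, 9.43 and 0.178 CPM in HET, and 35.6 and 16.5 CPM in KO. The Erg level in HET3 rested on 3 reads. For both genes HET3 and WT3 were lowest and KO1 stood among the male WT samples.

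Gata2 (chr6:88193891-88207032), needed for the emergence and survival of HSCs, had 140.0, 148 and 28.4 CPM in WT, 76.3, 40.3 and 34.4 CPM in HET, and 180.1 and 138 CPM in KO. KO1 was the highest of the 8 samples, and KO2 fell just below WT1 and WT2. Runx1 (chr16:92601466-92826149), the DNA-binding subunit of core-binding factor, had 119, 147 and 45.0 CPM in WT, 81.6, 75.8 and 36.6 CPM in HET, and 155 and 96.0 CPM in KO. KO1 was again highest, while KO2 was below both male WT samples. These were the only members whose highest sample was a KO sample, against 6 with the highest level in WT1 or WT2.

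The remaining members belong to one protein complex, in which Lmo2 links Tal1 or Lyl1 to GATA factors. Lmo2 (chr2:103957986-103981878) had 831, 898 and 641 CPM in WT, 614, 629 and 618 CPM in HET, and 824 and 693 CPM in KO. Lyl1 (chr8:84701457-84704715) had 38.1, 35.9 and 45.1 CPM in WT, 45.5, 44.4 and 45.4 CPM in HET, and 39.4 and 37.8 CPM in KO. Both were nearly level across libraries in which Mecom went from 1.36 to 237 CPM. Tal1 (chr4:115056426-115071755), a helix-loop-helix factor that is also used by erythroid and megakaryocytic cells, had 49.6, 53.3 and 115 CPM in WT, 80.8, 124 and 127 CPM in HET, and 56.6 and 86.2 CPM in KO. The 3 female WT/HET samples were highest for Tal1, with KO1 next to the male WT samples and KO2 between HET1 and WT3.

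**Figure D1:**
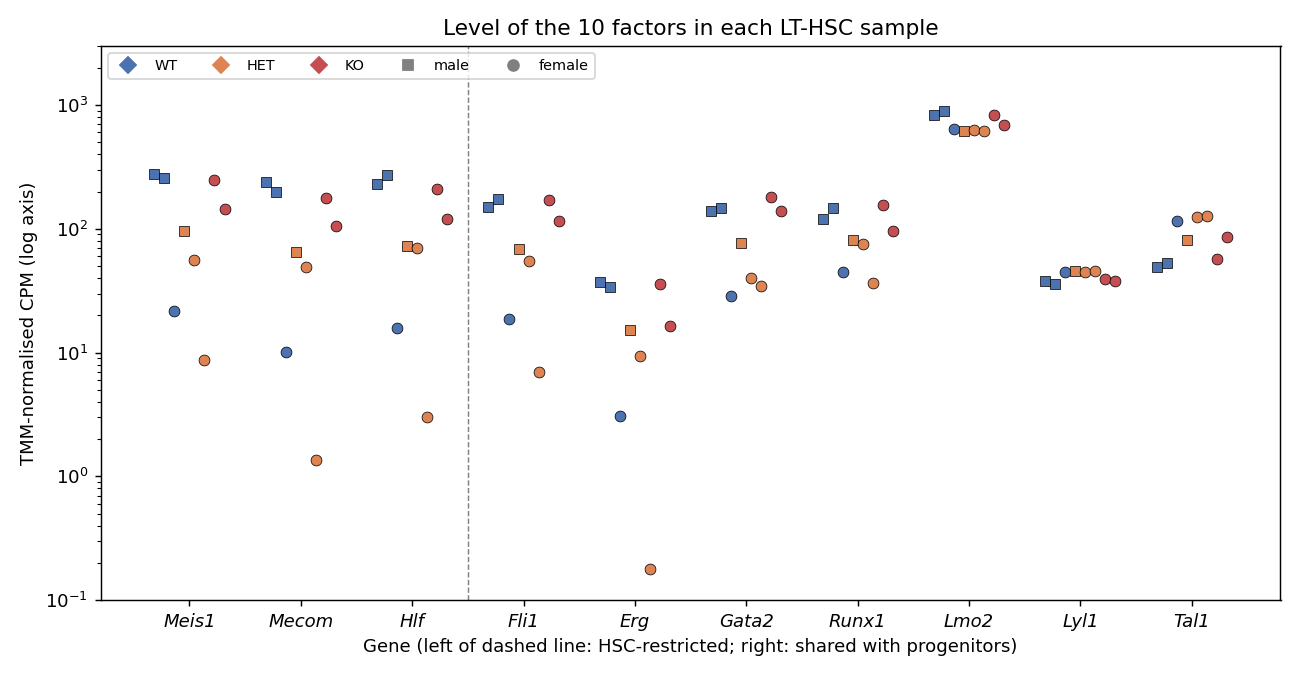
TMM-normalised CPM (log axis) of each member in each sample, with colour for genotype, squares for male and circles for female samples, and 1 point per sample. Female WT3 and HET3 are the lowest points for 7 of the 10 members, among them all 3 HSC-restricted genes, while Lmo2 and Lyl1 are nearly flat.

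The levels were compared between genes per kb of exon. Averaged over the 8 samples, Lmo2 was far above the others at 332 ± 52.8 CPM per kb (SD, n = 8), and it exceeded Fli1, the next gene at 27.3 ± 19.2, in 8 of 8 samples. Lyl1 followed at 23.0 ± 2.23, Tal1 at 19.8 ± 7.35, Hlf at 18.6 ± 15.3 and Gata2 at 18.2 ± 11.1 CPM per kb, and neighbouring means among these lay within the larger of their SDs. Fli1 was above Lyl1 in only 4 of 8 samples and Hlf above Gata2 in 3. Meis1 had a mean of 13.2 ± 10.4, Mecom of 8.52 ± 7.22, Runx1 of 7.87 ± 3.64 and Erg of 5.45 ± 4.29 CPM per kb. Meis1 was above Mecom in 8 of 8 samples, although their means were less than 1 SD apart. Over the 6 samples other than WT3 and HET3, Lmo2 and Fli1 were still the top 2 at 345 and 35.2 CPM per kb, Hlf came next at 24.4, and Runx1 and Erg were lowest at 9.37 and 7.10. Exons of Meis1 share 1925 bases with other annotated genes, those of Runx1 106, of Mecom 81 and of Lyl1 4. Of the Meis1 bases, 1029 overlap a gene on the same strand, which no strand setting can separate. The other overlaps are with genes on the opposite strand. Reads there are uncertain because the strand setting of the counting was not given in the sources used here.

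The question of the study was what loss of IκBα does to HSCs, so KO was compared with pooled WT/HET samples, with sex in the model. Since no KO sample was male, the KO fold change in this model is set by the 3 female WT/HET samples. The male samples bear on its error, and leaving out WT1 or WT2 left Gata2 at 2.21. A gene was called where its adjusted p was under 0.05 and its log2 fold change beyond 1 in either direction. By this rule edgeR called 0 of the 10 members and 0 of 20610 genes (0%). The deleted gene Nfkbia, at a log2 fold change of -9.50 and rank 1 by p-value, was itself not called (edgeR adjusted p = 0.0862). The lack of calls is therefore no evidence of equal levels. At an unadjusted p under 0.05, 7 members were higher in KO, where 15.7% of all genes were, and 1 was lower, where 9.48% were. The member medians stood far from those of all genes, with a median log2 fold change of 2.32 over the 10 members, with 8 higher in KO, against 0.13 over all genes. Since members were picked with results known, this is a description.

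In that fit the HSC-restricted genes had log2 fold changes of 2.77 for Meis1 (SE 0.71, edgeR adjusted p = 0.148), 2.82 for Mecom (SE 1.09, adjusted p = 0.170) and 2.47 for Hlf (SE 1.02, adjusted p = 0.184). Erg followed with 2.62 (SE 1.04), Fli1 with 2.42 (SE 0.72) and Runx1 with 1.26 (SE 0.36). Gata2 had a log2 fold change of 2.21 with the smallest error of those above 1 (SE 0.29, edgeR adjusted p = 0.148) and ranked 6 among all genes by p-value. Lmo2 differed by 0.27 (SE 0.19) and Lyl1 by -0.22 (SE 0.17), while Tal1 differed by -0.77 (SE 0.26, edgeR adjusted p = 0.155). These sizes rested in part on single libraries. Leaving out 1 sample at a time, the log2 fold change ranged from 2.25 to 4.63 for Mecom, 1.91 to 4.13 for Hlf, 2.32 to 3.70 for Meis1 and 1.95 to 3.49 for Fli1, in each case lowest without HET3 and highest without HET2. It ranged from 1.95 to 3.99 for Erg and 0.87 to 1.63 for Runx1, lowest without KO1 and highest without HET2. Tal1 went from -1.11 without KO2 to -0.50 without KO1, Lmo2 from 0.14 without KO1 to 0.39 without KO2, and Gata2 moved least among those above 1, from 2.01 to 2.39.

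The calls depended on the tool and on the reference. DESeq2 with apeglm shrinkage, the study's own choice of tools, called 3 members higher (Gata2, Fli1 and Meis1), where 6.56% of all genes were called higher. It shrank Mecom and Hlf to a log2 fold change of 0.41 each, and the unshrunken DESeq2 test called 4 members, adding Runx1 (7.37% of genes called higher). Against WT alone, edgeR called 5 members higher (Gata2, Fli1, Meis1, Mecom and Hlf), where 3.15% of genes were called, but WT3 is the only female WT sample. Against HET alone it called 0 members and 0 of all genes (0%), with 3 higher and 1 lower at an unadjusted p under 0.05 (7.86% and 6.16% of genes).

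The size of these differences depended on the sex term. When sex was left out of the model, the differences on the log2 scale were 1.03 for Gata2 (SE 0.62), 0.87 for Fli1 (SE 0.93), 0.72 for Meis1 (SE 1.05), 0.60 for Mecom (SE 1.30) and 0.57 for Hlf (SE 1.20). No member and no gene was called by edgeR (0%), and 0 members had an unadjusted p under 0.05 in either direction, where 1.08% of genes were higher and 0.922% lower. Within the female samples alone, Gata2 was 2.16 higher in KO (SE 0.20) and Mecom 2.76 (SE 1.15), with 4 members higher and 1 lower at an unadjusted p under 0.05 (12.6% and 12.3% of genes) and 0 members called by edgeR (0% of genes). The same female samples set the KO fold change in the fit with sex, so these near-equal sizes are no separate check.

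The overlap of single samples was then counted. No member had both KO samples above, or both below, all 6 WT/HET samples, which held for 3.05% and 1.79% of genes. Against the 3 female WT/HET samples, both KO samples were above for 8 members (27.1% of genes) and below for Tal1 and Lyl1 (21.4% of genes). The exact two-sided permutation p was 0.2 for each of the 10 members in the female comparison, the smallest that 2 against 3 samples allow, and 0.214 to 0.643 against all 6 samples, where the smallest is 0.0714. WT1 and WT2 were above the same female samples for 8 members (34.2% of genes) and below for 2 (26.1%), and these were the same genes as for KO.

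Without WT3 and HET3, an alternative chosen after seeing the data, HET2 is the only female reference sample. Gata2 then had a log2 fold change of 1.95 (SE 0.47) and Meis1 of 1.78 (SE 0.69), whereas Mecom came to 1.51 (SE 0.76), Erg to 1.44 (SE 0.69) and Hlf to 1.20 (SE 0.77). edgeR called 0 members and 0 of all genes (0%), and 2 members (Gata2 and Meis1) were higher at an unadjusted p under 0.05, where 4.07% of genes were. The median log2 fold change was 1.28 over the members and 0.14 over all genes.

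**Figure D2:**
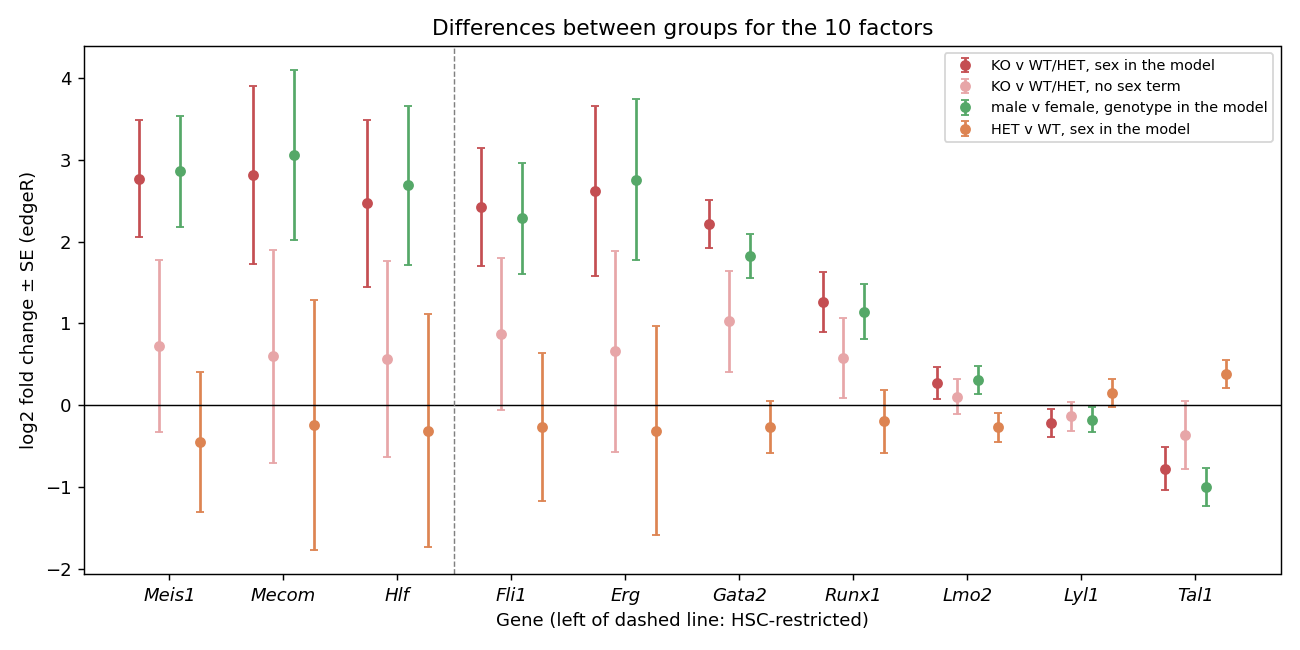
log2 fold change with standard error from edgeR for each member, for KO against WT/HET with and without sex in the model, male against female samples and HET against WT. The red (KO with sex) and green (male) points lie near each other for most genes, with Gata2 further apart at 2.21 and 1.82. Both are set against the same female WT/HET samples. The points without a sex term lie at 1.03 or below.

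Male against female samples, with KO against pooled WT/HET as the genotype term, gave differences of much the same size. WT and HET were not separated in this fit. The male samples were WT1, WT2 and HET1, and the female WT/HET samples were WT3, HET2 and HET3. The log2 fold change was 3.06 for Mecom (SE 1.04), 2.86 for Meis1 (SE 0.68), 2.76 for Erg (SE 0.98), 2.69 for Hlf (SE 0.97), 2.29 for Fli1 (SE 0.68), 1.82 for Gata2 (SE 0.27) and 1.15 for Runx1 (SE 0.33). Tal1 had a log2 fold change of -0.995 (SE 0.23), lower in male samples. edgeR called 0 of the 10 members (0.0194% of all genes), with 7 higher and 1 lower at an unadjusted p under 0.05 (18.9% and 13.6% of genes), and DESeq2 called 7 higher and 1 lower (11.5% and 3.01%). Leaving out 1 sample at a time, the log2 fold change ranged from 2.48 to 4.87 for Mecom, 2.13 to 4.35 for Hlf, 2.18 to 4.12 for Erg, 2.40 to 3.79 for Meis1, 1.81 to 3.35 for Fli1 and 0.92 to 1.51 for Runx1, lowest without HET3 and highest without HET2. Without WT3 and HET3, 2 members were higher at an unadjusted p under 0.05 (5.3% of genes). This comparison and the KO comparison share the female WT/HET samples.

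HET was compared with WT over 6 samples with sex in the model, since the study pooled them. edgeR called 0 members and 0 of all genes (0%), 0 members had an unadjusted p under 0.05, where 1.8% of genes were higher and 1.82% lower, and DESeq2 called 0 members (0.311% of genes). The log2 fold changes went from -0.45 for Meis1 (SE 0.86) to 0.39 for Tal1 (SE 0.17). The 3 HET samples were below the 3 WT samples only for Lmo2 (4.85% of genes), with an exact two-sided permutation p of 0.1, the smallest possible for 3 against 3. With the replicate number as a block, the size grew to -2.27 for Mecom, -2.19 for Erg, -1.99 for Hlf, -1.42 for Meis1 and -1.27 for Fli1, with 5 members lower at an unadjusted p under 0.05 (4.39% of genes) and 0 called by edgeR (0%). Without WT3 and HET3, edgeR called 5 members lower in HET (Fli1, Erg, Meis1, Mecom and Hlf), where 6.27% of genes were, from -1.22 for Erg to -1.80 for Hlf, in a fit that sets the single male HET1 against WT1 and WT2, assuming that HET1 varies as the WT samples do. Leaving out HET2 alone gave 4 calls (0.636% of genes), all lower in HET. Erythroid markers moved beside this comparison, with 6 of 7 higher in HET at an unadjusted p under 0.05 in the full fit (1.8% of genes) and a median log2 fold change of 2.00. HET1 had 11024 CPM of them in sum, against 831 and 982 CPM in WT1 and WT2. Without WT3 and HET3, the median log2 fold change in HET was 3.14 for the erythroid markers and -1.49 for the LT-HSC markers. Over all genes it was -0.06, and this fit again rests on HET1 against WT1 and WT2. Their part in the result was not tested.

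The split into HSC-restricted and shared factors was then followed in each sample as the mean log2 CPM of the restricted class less that of the shared class. It was 1.23, 1.10 and -1.49 in WT1, WT2 and WT3, 0.01, -0.19 and -2.94 in HET1, HET2 and HET3, and 0.84 and 0.41 in KO1 and KO2. The KO values lay within the WT range. By group the difference was 0.28 ± 1.53 in WT (SD, n = 3), -1.04 ± 1.65 in HET (n = 3) and 0.62 ± 0.30 in KO (n = 2). The restricted class had a median log2 fold change of 2.77 in KO and 2.86 in male samples, against 1.26 and 1.15 for the shared class, and the KO medians were 0.60 and 0.58 once sex was left out. With DESeq2 and apeglm shrinkage the order was the other way, at 0.41 for the restricted and 0.98 for the shared class. The edgeR medians in KO without WT3 and HET3 were 1.51 and 0.70. The shared class was itself split, since Erg and Fli1 lay with the restricted genes and Lmo2, Lyl1 and Tal1 did not.

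**Figure D3:**
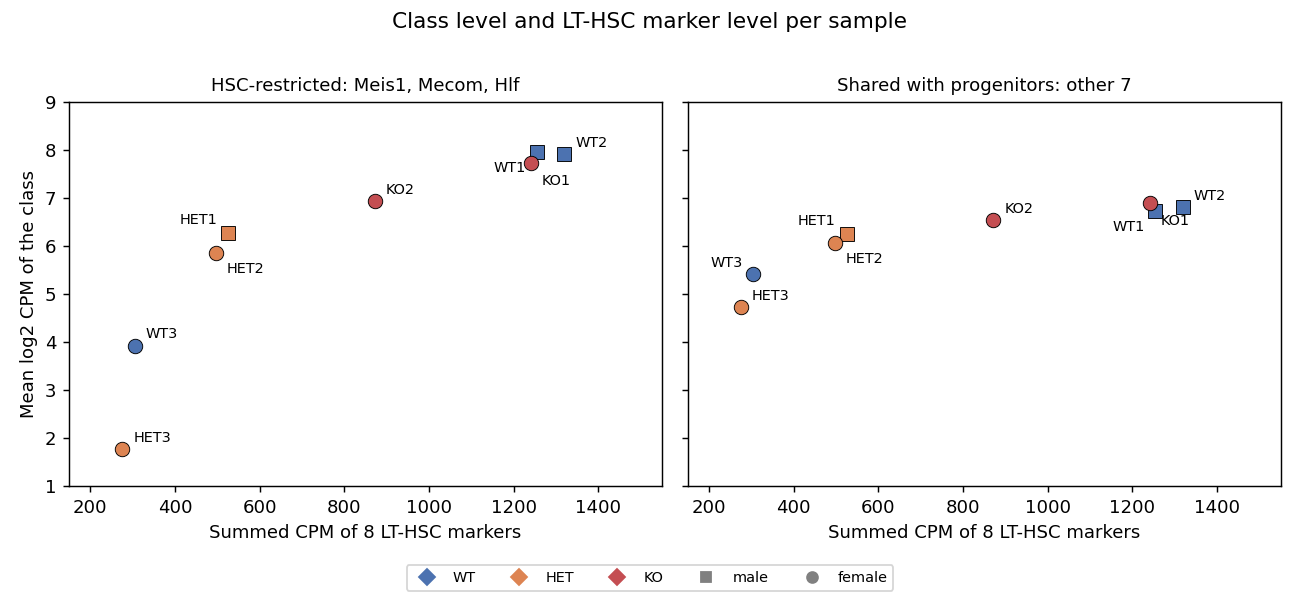
Mean log2 CPM of the 3 HSC-restricted members (left) and the 7 shared members (right) against the summed CPM of 8 LT-HSC markers, with 1 point per sample, colour for genotype and shape for sex. HET3 and WT3, at 276 and 305 CPM of markers, are lowest in both panels, and the restricted class spans 1.78 to 7.95 while the shared class spans 4.72 to 6.88.

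The level of each member was also set against the summed LT-HSC markers of its own sample, as a description. Per 1000 CPM of markers, Gata2 had 112, 112 and 93.1 CPM in WT, 145, 81.0 and 125 CPM in HET, and 145 and 158 CPM in KO, a 1.95-fold range. On this scale KO2 was the highest sample and KO1 was level with HET1. Runx1 kept within a 1.63-fold range, from 95.2 to 155 CPM per 1000, with KO at 125 and 110. Mecom had 143 and 122 CPM per 1000 in KO, inside the range of 4.94 to 189 in WT/HET, and Hlf had 169 and 138 inside 11.0 to 207. Lmo2, Lyl1 and Tal1 were highest per marker in WT3 and HET3, where the marker sum was lowest. Tal1 had 378 and 459 there against 39.5 to 250 CPM per 1000 in the others, and Lyl1 148 and 164 against 27.2 to 89.3. Kit, at 135 to 231 CPM, makes up much of the marker sum in WT3 and HET3.

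**Figure D4:**
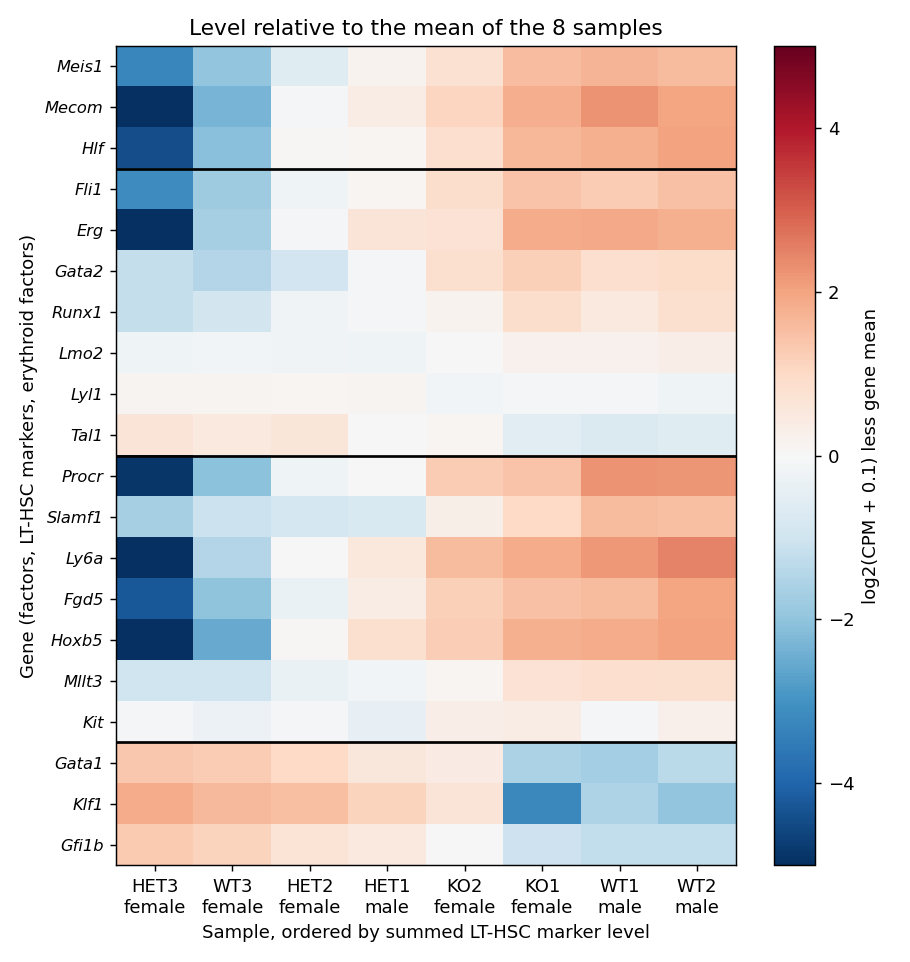
Levels of the 10 members, 7 LT-HSC markers and 3 erythroid factors in each sample as log2(CPM + 0.1) less the gene's mean, with samples ordered by summed LT-HSC marker level and the colour scale ending at 5 either way. The restricted factors, Fli1 and Erg share the gradient of the LT-HSC markers other than Kit, from HET3 and WT3 up to WT1 and WT2, and Tal1 shares the opposite one of Gata1, Klf1 and Gfi1b.

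The marker genes moved with the members in the tests as well. All 8 LT-HSC markers were higher in KO at an unadjusted p under 0.05 (15.7% of all genes) and 7 were higher in male samples (18.9%), with 0 called by edgeR and a median log2 fold change of 2.76 in KO. DESeq2 with apeglm called 2 of them higher in KO (6.56% of all genes). Without WT3 and HET3, 1 of the 8 was higher in KO at an unadjusted p under 0.05 (4.07% of all genes), with a median of 1.54. Ly6a had a log2 fold change of 2.86 (SE 1.23), Hoxb5 of 2.88 (SE 1.21) and Fgd5 of 2.81 (SE 0.89). These sizes were close to those of Meis1 and Mecom, and their part in the result was not tested. The list of target genes used below shares members with this one, among them Kit.

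Of 17 partners that bind DNA or cofactors with the members, 8 were higher and 1 lower in KO at an unadjusted p under 0.05 (15.7% and 9.48% of all genes), with 0 called by edgeR. Their median log2 fold change was 0.41. DESeq2 with apeglm called 4 higher and 0 lower (6.56% and 0.607% of all genes). With WT3 and HET3 left out, 1 partner was higher and 0 lower at an unadjusted p under 0.05 (median 0.26). Hox partners of Meis1 were among those with the largest differences. Hoxa7 was 2.74 higher on the log2 scale (SE 0.88), Hoxa10 2.65 (SE 0.94) and Hoxa9 2.47 (SE 0.93). Hoxa9 had 142 and 151 CPM in WT1 and WT2, 11.2 in WT3, 58.4, 40.3 and 1.96 in HET and 126 and 72 in KO, again with HET3 and WT3 lowest.

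Of 15 paralogues, 14 were tested, and 7 were higher and 0 lower at an unadjusted p under 0.05, where 15.7% and 9.48% of all genes were. The median was 1.59, with 0 called by edgeR and 5 called higher by DESeq2 with apeglm (6.56% of all genes). Leaving out WT3 and HET3, 3 were higher and 0 lower (median 1.01). Prdm16, a relative of Mecom that is also used by HSCs, had a log2 fold change of 3.19 (SE 0.97), Gata3 of 3.11 (SE 0.89), Runx2 of 2.98 (SE 1.07) and Lmo1 of 2.91 (SE 0.89). All 4 had their lowest levels in WT3 or HET3.

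Of 10 genes known as targets of the members, 6 were higher and 1 lower at an unadjusted p under 0.05 (15.7% and 9.48% of all genes), with a median of 1.09 and 0 called by edgeR. DESeq2 with apeglm called 3 higher and 1 lower (6.56% and 0.607% of all genes). With WT3 and HET3 left out, 1 target was higher and 0 lower at an unadjusted p under 0.05 (median 0.61). Cd34, the stem and progenitor surface antigen, at 2.54 (SE 0.87) and Spi1, which encodes PU.1, at 1.88 (SE 0.58) were among those with the largest positive log2 fold changes. Gfi1b, a transcriptional repressor that acts in erythroid and megakaryocytic cells, had -1.49 (SE 0.58), with 573 CPM in HET3 and 98.0 in WT2.

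Of 11 lineage factors, 10 were tested, and 3 were higher and 0 lower at an unadjusted p under 0.05 (15.7% and 9.48% of all genes). The median was -0.22, with 0 called by edgeR and 3 called higher by DESeq2 with apeglm (6.56% of all genes). With WT3 and HET3 left out, 2 were higher and 0 lower (median -0.30). Klf1, the erythroid master factor, had 114, 85.4 and 1040 CPM in WT, 731, 941 and 1227 CPM in HET, and 36.2 and 518 CPM in KO, a log2 fold change of -1.95 (SE 1.18). Gata1 had 51.7, 66.5 and 402 CPM in WT, 248, 336 and 427 CPM in HET, and 56.1 and 225 CPM in KO. Both genes were high where Mecom and Hlf were low, and KO1 was far below KO2 in both.

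The likeness of members was measured as the root mean square difference of log2 CPM, each gene centred on its own mean, over the 8 samples. Fli1 and Meis1 were nearest to each other (0.239), followed by Erg and Mecom (0.314), Lyl1 and Lmo2 (0.332), and Mecom and Hlf (0.334). Tal1 and Mecom were farthest apart (2.82). Of these 4 pairs, Fli1 with Meis1 and Erg with Mecom join the restricted and the shared class, while the others lie within a class. Nearness on this scale needs no shared direction. Lyl1 and Lmo2 varied little (SD 0.132 and 0.209), and WT1, WT2, KO1 and KO2 were lowest for Lyl1 but highest for Lmo2. Over the 6 samples other than WT3 and HET3, the nearest pairs were Meis1 and Mecom (0.136), Erg and Meis1 (0.182), and Mecom and Hlf (0.189), and Tal1 was farthest from Meis1 (1.30).

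Among 10098 other genes with a mean of at least 5 CPM, those nearest to Mecom were Gm19590 (0.0641), Cd27 (0.116) and Esam (0.122), where the median gene lay 2.41 away. The nearest to Meis1 were Tmem176b (0.125), Ptprc (0.146) and Grap (0.151), and to Hlf they were Retreg1 (0.102), Ecscr (0.118) and Cnrip1 (0.152). Ptprc, the gene of CD45, had 235 and 256 CPM in WT1 and WT2, 19.6 CPM in WT3 and 8.36 CPM in HET3. Fli1 had Cxxc5, Calcrl and Ppp1r18 as its neighbours (0.118 to 0.137), and Erg had Stat4, Rbpms and Lsp1 (0.148 to 0.206). Gata2 lay nearest to Smtn, Plcb3 and D330041H03Rik (0.133 to 0.211), and Runx1 to Ndst1, Eml5 and Dtx3l (0.0912 to 0.102). The nearest to Tal1 were Pde4a, Dohh and Wdcp (0.0669 to 0.0870), to Lyl1 Cfl1, Rbm7 and Sub1 (0.0373 to 0.0439), and to Lmo2 Slc25a11, Rfx7 and Pja2 (0.0498 to 0.0650). These neighbours depended on WT3 and HET3, since 3 of the 30 remained among the 3 nearest over the other 6 samples. Nearness to Lyl1 and Lmo2 shows little beyond a level that hardly varied.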

How the data were processed

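Bulk RNA-seq of 500 LT-HSCs per sample was analyzed for 3 WT, 3 HET and 2 KO samples, grouped by the sample labels. The authors deposited raw counts per Ensembl gene, made with Trim Galore 0.6.6 and STAR 2.7.8 on GRCm38 from uniquely mapped reads, so genes with near-identical copies are undercounted. A table deposited by the authors on the log2 scale, from the variance-stabilizing transformation of DESeq2 with sex removed, was not used for any result, since it has the sex difference taken out.

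Genes with at least 10 reads summed over the samples were kept (20610). Counts were TMM-normalised, and CPM use these library sizes. edgeR 4.0.16 (R 4.3.3, quasi-likelihood test, legacy form) was fitted to all genes (terms for sex and genotype, Benjamini-Hochberg adjustment over all genes tested), and DESeq2 1.42.0 with apeglm 1.24.0 was an alternative. SE is the absolute log2 fold change over the root of the F statistic. Permutation tests used log2 CPM with a prior count of 2. On simulated data, edgeR recovered 105 of 200 genes given a log2 change of 2, with 9 false calls among 19794 genes. On the real samples the KO comparison called 0 of 20610 genes, so this recovery need not hold for them. The limit of 3 reads covers counting error only. Exon lengths and positions are from GENCODE M21 (GRCm38), counted from 1, whereas the authors counted on another Ensembl release, and 55141 of 55487 identifiers had a symbol.

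The members, their classes and the gene lists were chosen with earlier results of these data known. Named genes were all members, Nfkbia, at most 4 genes per list with the largest absolute log2 fold change in KO among those with a mean of at least 5 CPM, and the 3 genes nearest to each member. Kit, Ptprc, Ly6a and the genes plotted with the LT-HSC markers were named beside this rule after their values were seen. Some genes that the rule covers are not reported here. Replicate numbers come from the sample titles. The deviations of same-numbered WT and HET samples from their group means correlated at 0.654, 0.488 and 0.770 across genes, so the block is given beside the HET result, though pairs 1 and 3 also share sex. Alternatives were other tools, normalisations, filters, references and covariates, and the omission of single samples. The mast and basophil, megakaryocyte, granulocyte and B-lymphoid marker lists had 1, 2, 0 and 1 members higher in KO at an unadjusted p under 0.05 and none lower, and erythroid, hepatocyte and macrophage markers had 0 either way.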

Additional observations from a re-analysis of the deposited data

Results flagged for a closer look

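Gata2 was the member for which HET and WT differed in opposite directions in the 2 sexes, with no overlap between samples in either sex. Each sex sets 1 sample against 2, where lack of overlap is common without any difference. The share of all genes with this pattern was not counted, so it cannot be read as particular to Gata2. In male samples HET1 was lower than the mean of WT1 and WT2 by 0.916 on the log2 CPM scale (difference -0.916), and in female samples the mean of HET2 and HET3 was 0.387 above WT3. In edgeR the difference between the sexes was -1.31 on the log2 scale, with an adjusted p of 0.453, so it did not pass the threshold. The male side rests on a single HET sample and the female side on a single WT sample, WT3, which was low in LT-HSC markers.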

How the results depend on the processing

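With 2 KO samples and an uneven sex balance, the count of members called moved under 6 alternatives and not under 15 in KO against WT/HET, under 2 and not 13 in HET against WT, and under 4 and not 11 in male against female samples. Where no reason is stated the cause was not tested. Shares of all genes are given above for some of these settings. Other settings, such as no filter on low counts, have no share beside them. Their member counts cannot be read as particular to the members. In KO against WT/HET edgeR called 0 members, against 4 with the DESeq2 Wald test, 3 with apeglm, 5 without a filter on low counts and 5 with WT alone as the reference. Members higher at an unadjusted p under 0.05 numbered 7, but 0 without sex (0 lower), 4 in female samples only, 3 with HET alone as the reference and 2 without WT3 and HET3 (0 lower), while WT alone left 0 lower. With the replicate number as a block and sex kept, 1 was higher and 0 lower. Whether KO numbers pair with the others cannot be told. Deviations correlated at 0.563 and 0.445 for replicate 1 and at -0.604 and -0.337 for replicate 2. With 2 KO samples, the deviations of KO1 and KO2 from their mean are equal and opposite, so the opposite signs are no separate evidence.

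Leaving out each sample in turn gave 0 to 5 calls (5 without HET2, 1 without HET1), 3 to 7 members higher (3 without KO1, 4 without WT3) and 0 to 1 lower (0 without KO1). For HET against WT it gave 0 to 4 calls (4 without HET2, with 0.655% of all genes called). It gave 0 to 1 higher and 0 to 6 lower (2 without WT3, and 6 without HET2, where 9.02% of all genes were lower). The block gave 5 lower, and leaving out WT3 and HET3 gave 5 calls, 1 higher and 8 lower. For male against female samples the calls were 0 to 6 (6 without HET2, 5 without HET1) and the members higher 4 to 8 (4 without WT3), with 8 called by the DESeq2 Wald test, 7 without a filter, and 2 higher without WT3 and HET3.

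Lyl1 turned from lower to higher with library size only, at 0.065 in KO and 0.087 in male samples. HET against WT changed sign in the leave-one-out fits, which ranged from -0.92 to 0.39 for Gata2, -0.71 to 0.32 for Runx1, -0.012 to 0.30 for Lyl1, -1.31 to 0.73 for Fli1, -1.87 to 0.65 for Erg, -1.46 to 0.59 for Meis1, -2.10 to 1.33 for Mecom and -2.01 to 1.22 for Hlf. The positive ends (for Lyl1 the negative end) came without HET1. Without HET3 the values were 0.02 for Fli1, 0.03 for Erg, 0.07 for Mecom and 0.00 for Hlf. Of 670 values under alternatives, 565 kept their direction and side of the threshold and 14 changed sign. Levels below about 0.2 CPM, as for Erg in HET3, are at the limit of the depth.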
